A study of Mus musculus with 12 samples.

Results

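The genes described here are the 44 collagen genes of the mouse that carry a systematic chain symbol (Col, the type number, a, the chain number), taken by that symbol from the 38924 genes listed for each library. All 44 were read in every library. RNA was measured by sequencing of polyA-selected mRNA from whole spinal cord of 12 mice aged 1 week, on a mixed B6J;CAST background (C57BL/6J with CAST). Both genotypes share that background and age. 6 mice were wild type (wt) and 6 carried GarsP278KY, an allele of the glycyl-tRNA synthetase gene that the series title gives as heterozygous (GarsP278KY/+) and describes as studied before disease onset. By label, 3 mice of each genotype were female and 3 male, and no treatment was named. The allele is a whole-body one, so that every tissue in a sample carries it. Whole cord was lysed, and the labels do not say whether meninges, roots or vertebral tissue were removed.

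Collagens are proteins of 3 chains wound into a rope-like helix, which needs a glycine in each repeat of 3 residues. Fibrillar types build the tensile fibrils of connective tissue, type IV builds the sheet under endothelium and around the cord, types II, IX, X and XI belong to cartilage, and several membrane-bound or short fibril-associated types sit at junctions of muscle with nerve or tendon. In and around the cord their main sources are fibroblasts of the meninges, cells of the vessel wall, Schwann cells of the roots, and bone, cartilage and muscle of the vertebral column, while neurons and glia make only some of them.

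The repeat that defines these genes was read from their coding sequences in GENCODE M21. Glycine codons made up a median of 24.2% of the codons of the 44 genes, against a median of 6.03% over 21581 genes, and 33 of the 44 lay above the 99th percentile. The share ran from 9.07% in Col6a3, most of whose length is outside the helix, to 31.2% in Col9a3. The longest unbroken run of such repeats, Gly-X-Y, held 338 repeats in Col1a1, 339 in Col2a1 and 40 in Col4a1. The stretches of 72 coding bases below show why: the first pair comes from the start of such a run, and the Col4a1 stretch crosses breaks in it. Capitals mark the glycine codons (GGN), and the stretches start at codon 168 of Col1a1, codon 201 of Col2a1 and codon 151 of Col4a1.
Col1a1: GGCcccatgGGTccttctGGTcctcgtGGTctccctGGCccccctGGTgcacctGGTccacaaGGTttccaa
Col2a1: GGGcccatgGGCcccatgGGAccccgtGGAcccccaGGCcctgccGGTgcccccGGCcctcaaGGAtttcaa
Col4a1: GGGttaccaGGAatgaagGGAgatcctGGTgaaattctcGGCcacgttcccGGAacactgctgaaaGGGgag
The Col1a1 and Col2a1 stretches start each repeat of 3 codons with glycine throughout. In Col4a1 the spacing is lost 3 times over the same length.

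The libraries held from 27713981 to 43219891 expected counts. Marks of sex went against the label in 2 libraries, both wt: the library labelled female wt 14 had Xist at 0.533 CPM (read counts scaled to library size) and Ddx3y at 45.1 CPM, and the library labelled male wt 19 had 859.8 and 0.023. Names are kept as the labels give them, by sex, genotype and mouse number, and results that rest on these libraries are given with and without them. Gars mRNA was 117 to 135 CPM in wt and 121 to 139.7 in P278KY, with overlapping groups and a log2 fold change of 0.07 ± 0.05 (SE; edgeR quasi-likelihood adjusted p = 0.9999), so the targeted gene's level does not check the genotype labels. The cord itself was plain in all libraries: the summed level of 10 markers of cord neurons and glia, which include Snap25 and Aqp4, was 7276 to 11170 CPM.

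Fibrillar collagens were the most abundant class in the cord samples, and the cartilage and basement membrane classes followed at levels that could not be ordered. Levels are given in TPM, the share of transcripts after correction for gene length, scaled to 1 sum in every library, as mean ± SD over the 12 mice. The 8 fibrillar genes summed to 713 ± 313 TPM, the 7 cartilage genes to 219.5 ± 29.3, the 8 basement membrane genes to 217 ± 34.1, the 6 type VI genes to 96.9 ± 38.7, the 5 fibril-associated genes to 87.8 ± 14.4, the 7 network, anchoring and other genes to 65.5 ± 12.5 and the 3 muscle junction genes to 26.8 ± 1.67. The chains of types II and XI (Col2a1, Col11a1 and Col11a2) also form fibrils, but they were counted with cartilage. The fibrillar sum therefore leaves them out. The fibrillar class was above the cartilage class in 12 of 12 libraries. Cartilage was above basement membrane in 6 of 12, and type VI above fibril-associated in 8 of 12, so these neighbours did not differ beyond their spread. Each other step in this order held in 12 of 12. All collagens together took 999 to 2517 TPM, and the fibrillar class made up 48.3% ± 7.04 (SD, n = 12) of that sum.

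**Figure D1:**
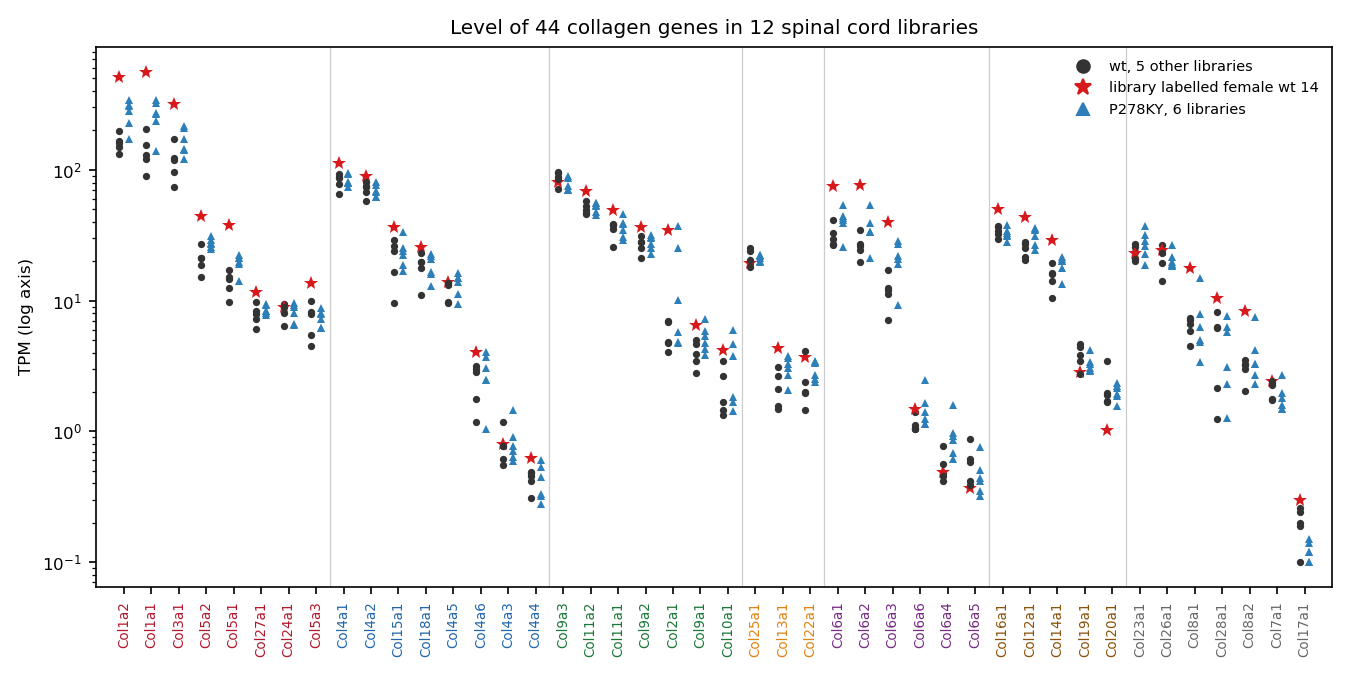
Level of each of the 44 collagen genes (x axis, coloured and grouped by class, from left: fibrillar, basement membrane, cartilage, muscle junction, type VI, fibril-associated, network and other) in each of the 12 libraries, in TPM on a log axis (y axis). Circles are wt libraries, triangles P278KY libraries, and the star is the library labelled female wt 14, which was the highest of all 12 in 26 genes, Col1a1 at 565 TPM among them.

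Among the fibrillar genes, the type I chains led. Col1a2 averaged 247 ± 111 TPM and Col1a1 237 ± 132 TPM, and Col1a2 was the higher of the pair in 7 of 12 libraries. Col3a1, the type III chain that accompanies type I in soft tissue, averaged 159 ± 66.2 TPM and lay below Col1a1 in 8 of 12. These 3 genes made up 45.1% of all collagen TPM. The step down to Col5a2 (26.2 ± 7.39 TPM), a type V chain that starts and limits the width of type I fibrils, held in all 12 libraries, as did the next to Col5a1 (18.7 ± 7.13 TPM). Col27a1, Col24a1 and Col5a3 lay at 8.51 ± 1.39, 8.32 ± 1.19 and 7.81 ± 2.36 TPM and did not differ from each other beyond their spread. Col3a1 and the members named in this and the next paragraphs outside the naming rule were chosen after their values were seen.

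The basement membrane genes were led by Col4a1 and Col4a2, which encode the chains of the common type IV trimer. Col4a1 was at 85.5 ± 12.4 TPM and Col4a2 at 71.9 ± 9.13 TPM, and Col4a1 was the higher in every library. The pair is transcribed in opposite directions on chromosome 8: the annotated Col4a1 start on the minus strand (base 11312826, GRCm38, the same in GENCODE M21 and RefSeq) and the Col4a2 start on the plus strand (base 11312805) overlap by 22 bases. Their TPM ratio was 1.13 to 1.27 over the 12 libraries, the narrowest of the pairs of chains compared. Col4a5 and Col4a6 lie in the same arrangement on chromosome X, with RefSeq starts 1343 bases apart, but their ratio ran from 3.42 to 9.11, a range of 2.66-fold. Col15a1 (23.5 ± 7.52 TPM) and Col18a1 (19.01 ± 4.37 TPM), whose products join basement membranes to the tissue beneath, came next. Col4a3 and Col4a4, chains of the kidney filter, were low at 0.82 ± 0.26 and 0.44 ± 0.11 TPM. This pair is also transcribed in opposite directions, on chromosome 1. The GENCODE M21 starts are base 82586921 for Col4a3 (plus strand) and base 82586849 for Col4a4 (minus strand). The ratio of Col4a3 to Col4a4 ran from 1.27 to 3.25, a range of 2.56-fold.

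Within the cartilage class, 4 chains of types IX and XI had a higher mean level than the type II chain that makes up most of cartilage collagen, and the type IX chain Col9a1 had a lower one. Col9a3, a chain of the type IX collagen that coats type II fibrils, was its most abundant member at 81.5 ± 9.92 TPM, followed by Col11a2 at 52.8 ± 6.69, Col11a1 at 36.9 ± 6.55 and Col9a2 at 28.1 ± 4.29, and each of these steps held in 12 of 12 libraries. Col2a1, the type II chain, was below all 4 of them on average at 12.5 ± 12.4 TPM, and Col9a1, at 4.81 ± 1.29 TPM, was below Col2a1 in 10 of 12 libraries. Col2a1 fell into separate groups of libraries. It was 34.9 TPM in the library labelled female wt 14, 37.4 in male P278KY 5 and 25.3 in male P278KY 13, and 4.04 to 10.1 TPM in the other 9. Of the 6 libraries with Ddx3y at 45.1 CPM or more, 3 were these and 3 (male wt 6, male wt 9 and male P278KY 3) had low Col2a1. Over the same libraries Col9a3 ran only from 69.5 to 97.0 TPM and Col11a2 from 45.2 to 69.1, so the ratio of Col11a2 to Col2a1 ran from 1.5 to 11.4. Col10a1, the collagen of cartilage cells that precede bone, was 1.33 to 5.92 TPM and was highest in male P278KY 5 and male P278KY 13. The SDs of log2 CPM within groups were 0.17 to 0.23 for Col9a3, Col9a2, Col11a1 and Col11a2, and 0.98 for Col2a1. These 4 genes were not alike in how they moved with Col1a1 over the libraries. Pearson r with Col1a1 was 0.83 for Col11a2, 0.37 for Col9a2, 0.28 for Col11a1 and 0.09 for Col9a3, without a test. How these 4 genes follow cartilage and bone markers was not tested.

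Muscle junction collagens were the smallest class, and a single member set its level. Col25a1, a membrane-bound collagen made by neurons including motor neurons, was at 21.2 ± 2.14 TPM. Col13a1, a membrane-bound collagen of the neuromuscular junction, was at 2.82 ± 0.89 TPM and Col22a1, which marks the muscle-tendon junction, at 2.79 ± 0.81 TPM. Col13a1 was above Col22a1 in 7 of 12 libraries, so this pair was not ordered. In type VI, the beaded-filament collagen, Col6a1 (40.1 ± 13.9 TPM), Col6a2 (35.3 ± 15.8 TPM) and Col6a3 (18.9 ± 9.57 TPM) carried the class, and the chains that can stand in for Col6a3, Col6a6, Col6a4 and Col6a5, lay at 1.35 ± 0.41, 0.74 ± 0.33 and 0.50 ± 0.17 TPM. Col16a1 (34.6 ± 5.66 TPM) and Col12a1 (29.5 ± 6.83 TPM) led the fibril-associated genes, and Col23a1 (25.4 ± 5.21 TPM) and Col26a1 (21.3 ± 3.77 TPM) the mixed remainder. Col17a1, the collagen of skin hemidesmosomes, was the lowest of the 44 at 0.17 ± 0.07 TPM, from 8 to 28 counts in a library.

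Collagen genes differed between mice of the same group more than most genes did. The spread is the SD of log2 CPM after the mean of each of the 4 groups is removed. Its median was 0.35 over the 44 genes and 0.16 over all 17995 genes tested, and 27 of the 44 lay above the 90th percentile of genes within 0.5 log2 CPM of their own level, a comparison added after the data were seen. By class the median SD was 0.53 for type VI, 0.48 for muscle junction, 0.42 for fibrillar, 0.34 for the mixed remainder, 0.28 for fibril-associated, 0.27 for basement membrane and 0.23 for cartilage genes. On the log2(TPM + 1) scale, where the pseudocount compresses low values, the type VI median was 0.36. Without the library labelled female wt 14 the fibrillar median was 0.29.

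**Figure D2:**
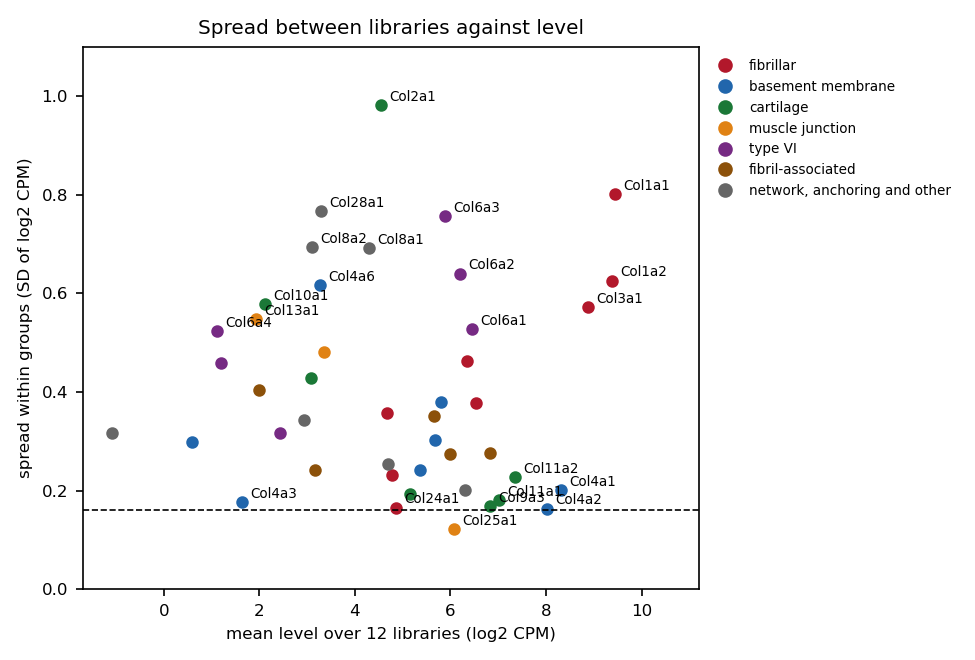
Spread within groups (y axis, SD of log2 CPM after removing group means) against mean level (x axis, log2 CPM) for each of the 44 collagen genes, coloured by class, with the median SD of all genes tested as a dashed line. Col2a1 (0.98) and Col1a1 (0.80) are the most variable and Col25a1 (0.12) the least, and most of the genes lie above the line.

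The most variable members were Col2a1 (SD 0.98), Col1a1 (0.80) and Col28a1 (0.77). Col1a1 TPM was 89.6, 121 and 565 in wt libraries labelled female (mouse 1, 2 and 14), 129.7, 154 and 205 in wt labelled male (6, 9 and 19), 140.5, 270.0 and 265 in P278KY labelled female (4, 7 and 10), and 236, 342 and 323 in P278KY labelled male (3, 5 and 13). A single wt library was thus the highest of all, while the other 5 wt libraries took the places from 89.6 to 205. In the same sequence of groups and mice, Col1a2 was 133, 160.3 and 515 TPM, then 165, 149 and 197, then 173, 310.4 and 315, then 227, 343 and 279.5, with the same library at the top. The ratio of Col1a1 to Col1a2, whose products join in the type I molecule, was 0.68 to 1.16. At the other end, Col25a1 (SD 0.12), Col4a2 (0.16), Col24a1 (0.17) and Col9a3 (0.17) were close to the median of all genes.

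Col28a1, a collagen of Schwann cells that surround peripheral axons, separated the libraries in another way. It was 5.72 to 10.4 TPM in the 6 libraries labelled female and in male wt 6, and 1.24 to 3.12 TPM in the other 5, all labelled male. The libraries labelled female wt 14, the highest at 10.4 TPM, and male wt 19, at 2.14 TPM, carry sex marks against their labels. The split therefore does not follow the marks of sex. The mean log2 CPM of 10 Schwann cell markers was 3.37 to 6.88 over the 12 libraries, and the 5 libraries with low Col28a1 were the 5 with the lowest values. This match was noticed after the values were seen, and the part of Schwann cell RNA in the Col28a1 level was not tested.

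P278KY and wt cords did not differ in any collagen gene at an adjusted p of 0.05. With all 12 libraries fitted and a term for the labelled sex, 0 of the 44 genes were called (edgeR quasi-likelihood test, Benjamini-Hochberg over all genes; background 0.00556%), and DESeq2 called 0 as well (background 0.183%). 1 of the 44 had an unadjusted p under 0.05, which is 2.27% against a background of 4.09%. 26 were higher and 18 lower in P278KY, 59.1% higher against 46.9% of all genes tested, with a median log2 fold change of 0.04 against -0.01. In 0 of the 44 were the genotypes' CPM free of overlap (background 0.222%). The absence of a call does not show equal levels, since the SE was 0.47 log2 units for Col1a1 and 0.95 for Col2a1.

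**Figure D3:**
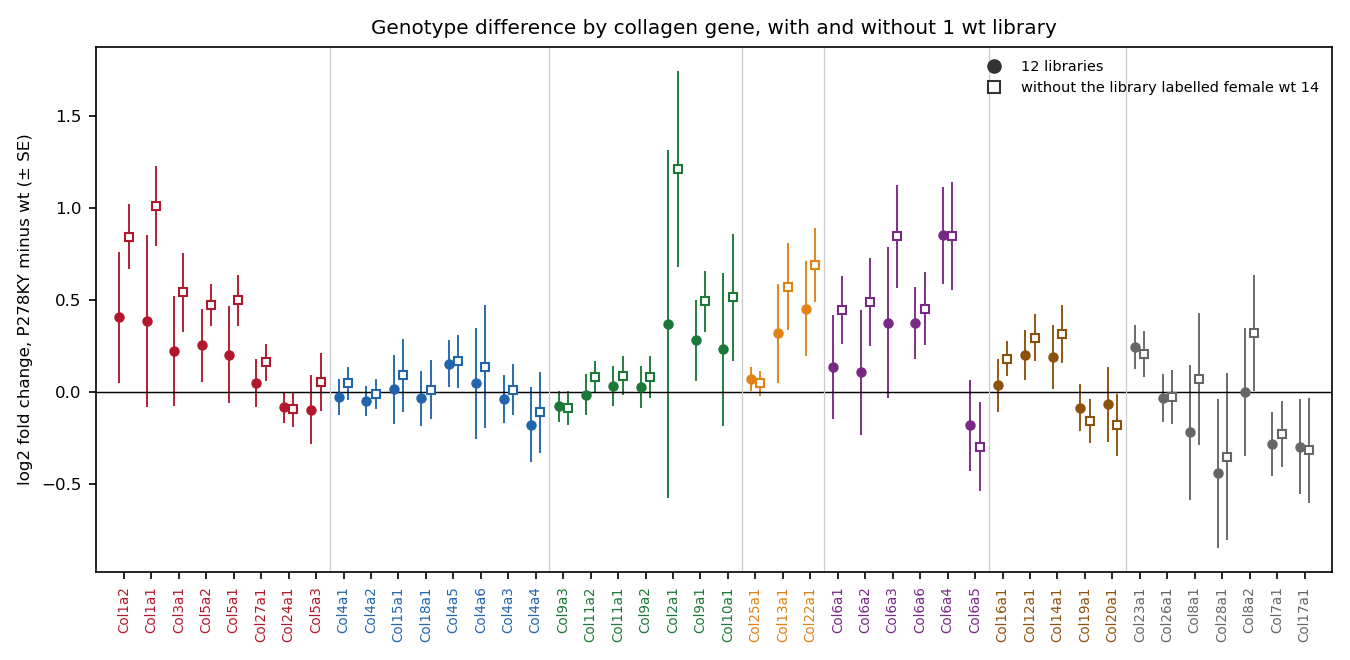
Log2 fold change of P278KY minus wt (y axis, ± SE) for each collagen gene (x axis, grouped and coloured by class), from all 12 libraries (filled circles) and from the 11 libraries without the one labelled female wt 14 (open squares). The open squares of 7 of the 8 fibrillar genes sit higher and have shorter bars, Col1a1 moving from 0.38 ± 0.47 to 1.01 ± 0.22 (the exception is Col24a1), and basement membrane genes stay near 0.

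By class, 6 of 8 fibrillar genes had a higher fitted level in P278KY (median log2 fold change 0.21), as had 5 of 6 type VI genes (0.26), 3 of 3 muscle junction genes (0.32), 5 of 7 cartilage genes (0.03), 3 of 5 fibril-associated genes (0.04), 3 of 8 basement membrane genes (-0.03) and 1 of 7 of the mixed remainder (-0.22), and 0 in any class were called. Col6a4, a chain of type VI that can stand in for Col6a3, had the smallest p. Its level was 0.42 to 0.77 TPM in wt (median 0.48) and 0.62 to 1.60 TPM in P278KY (median 0.90), and the groups overlapped. The difference of P278KY over wt was 0.85 ± 0.27 log2 units (SE; adjusted p = 0.9999 by edgeR), from 44 to 131 counts in a library, and it was above 0 under each alternative fit. Col23a1, a membrane-bound collagen, followed with 0.24 ± 0.12, Col6a6 with 0.37 ± 0.20, Col22a1 with 0.45 ± 0.26 and Col7a1, the anchoring fibril of skin, with -0.29 ± 0.17, each at an unadjusted p above 0.05. Col22a1 was 1.47 to 4.14 TPM in wt (median 2.21) and 2.40 to 3.46 TPM in P278KY (median 3.01).

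The 2 most abundant genes show how far a single library sets these values. Col1a2 was 0.40 ± 0.35 log2 units higher in P278KY and Col1a1 0.38 ± 0.47, neither distinguishable from 0 (edgeR adjusted p = 0.9999 for both). Without the library labelled female wt 14, the values were 0.84 ± 0.18 for Col1a2 (edgeR adjusted p = 0.443) and 1.01 ± 0.22 for Col1a1 (edgeR adjusted p = 0.517). In that fit 13 of the 44 genes had an unadjusted p under 0.05, all 13 higher in P278KY, which is 29.5% against a background of 4.03%, and 33 of 44 were higher. They were the fibrillar Col1a1, Col1a2, Col3a1, Col5a1 and Col5a2, the type VI Col6a1, Col6a3, Col6a4 and Col6a6, the junctional Col13a1 and Col22a1, and Col9a1 and Col12a1. Still 0 were called (background 0.00548%). Without both libraries whose sex marks go against their labels, 15 of 44 had an unadjusted p under 0.05 (34.1%, background 5.76%), again all higher, 0 were called (background 0.0%), and the lowest edgeR adjusted p was 0.161, for Col22a1 (0.91 ± 0.15). Leaving out only the library labelled male wt 19 gave 3 (6.82%, background 4.59%). The library labelled female wt 14 was the highest of all in 26 of the 44 genes. Leaving it out therefore lowers their wt level by construction. Many collagens also moved together over the libraries, Col1a2 with r = 0.97 to Col1a1. The counts of 13 and 15 are therefore no independent evidence of a genotype difference.

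The omission of the library labelled female wt 14 also moved markers of other tissues. Of 10 cartilage and bone markers, 8 were higher in P278KY with a median log2 fold change of 0.30 over all libraries, and 9 with a median of 0.59 without the library labelled female wt 14, 4 of them with an unadjusted p under 0.05. Of 10 meninges and fibroblast markers, 4 were higher (median -0.08) and then 6 (median 0.06). Of these markers, 0 had an unadjusted p under 0.05 over all libraries and 2 without that one, both higher. All 10 skeletal muscle markers were higher both times (medians 2.76 and 2.60), 6 of them with an unadjusted p under 0.05 over all libraries and 1 without that one. Without the library labelled male wt 19 the muscle median was 4.60, with 9 of 10 under 0.05, and without both it was 4.73, again with 9 of 10. Without both, 9 of 10 cartilage and bone markers were higher (median 0.61), 5 of them with an unadjusted p under 0.05. Of the meninges and fibroblast markers 8 of 10 were then higher (median 0.19), 3 of them with an unadjusted p under 0.05. No marker of these 3 lists was called in these fits. Over all libraries wt and P278KY overlapped in the summed level of the muscle markers (13.5 to 1014 CPM and 67.9 to 2694 CPM). The library labelled female wt 14 was also the only one with sensory ganglion neuron markers at a high level, summing to 532 CPM against 71.6 to 123 CPM in the other 11. The defining markers of muscle, cartilage and meninges were above 0 in every library, and the sensory neuron gene Mrgprd was the only marker listed at 0 in any. The part of attached bone, muscle, meninges or ganglion in the collagen differences was not tested, and in whole-tissue RNA more cells of a type and more RNA per cell cannot be told apart.

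Within labelled sexes, 0 collagen genes were called in females, in males or in the interaction (edgeR, background 0.0% each; the lowest interaction adjusted p was 0.309). 22 of the 44 were higher in P278KY in females (background 48.1%) and 28 in males (background 49.3%). The unadjusted p was under 0.05 for 2 of 44 genes in females (background 10.7%), 3 of 44 in males (background 4.91%) and 3 of 44 in the interaction (background 10.9%). These counts rested on single libraries. Without the library labelled female wt 14 they were 9 of 44 in females (background 10.4%) and 10 of 44 in males (background 5.72%). Without the one labelled male wt 19 they were 6 of 44 in males (background 7.63%) and 6 of 44 in the interaction (background 11.7%). Without both, they were 11 of 44 (background 11.0%), 12 of 44 (background 8.72%) and 6 of 44 (background 12.7%). Each background is a percentage of all genes tested. As shares of 44, the counts in females and males without both libraries were above their backgrounds, and that of the interaction was close to its own. With each library left out in turn the counts ran from 2 to 9 in females, 1 to 10 in males and 2 to 6 in the interaction, and 0 collagen genes were called in any of these edgeR fits. The 3 of the interaction with all libraries were Col2a1, Col10a1 and Col11a1, all of the cartilage class. Col2a1 had a log2 fold change of -1.51 ± 0.79 in females and 2.23 ± 0.80 in males, neither called, an interaction of -3.74 ± 1.13 (edgeR adjusted p = 0.309). DESeq2 gave the Col2a1 interaction an adjusted p of 0.036, the only interaction it called among the 44 (background 1.55%), and it called 0 of them in females (background 1.61%) and 0 in males (background 0.189%). With the library labelled female wt 14 left out, Col2a1 had an interaction of -2.26 ± 0.69 (edgeR adjusted p = 0.299) and a female value of -0.02 ± 0.52, so the lower level in females rests on that library. Of the 3 libraries with high Col2a1 named above, 1 carries sex marks against its label and stands on the female wt side of this comparison. Col10a1 was -0.70 ± 0.42 in females (-0.26 ± 0.42 without that library) and 1.13 ± 0.42 in males, and Col11a1 -0.18 ± 0.13 and 0.24 ± 0.13.

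Genes that make and handle collagen were not called either. Of 57 tested genes on 4 lists, 35 were higher (background 46.9%) and 22 lower in P278KY, 2 (Tmem38b and Adamts3) had an unadjusted p under 0.05 (background 4.09%) and 0 were called. On the list of modifying enzymes and chaperones of the endoplasmic reticulum, 10 of 20 were higher. Tmem38b, an ion channel needed for collagen modification, was 11.1 ± 1.1 CPM (SD, n = 6) in wt and 12.6 ± 1.54 in P278KY, a log2 fold change of 0.18 ± 0.08, and P3h2, a prolyl 3-hydroxylase, had 0.20 ± 0.13. Of 17 genes for processing and crosslinking, 12 were higher. Adamts3, which trims procollagen, was 22.5 ± 2.19 CPM in wt and 20.2 ± 2.57 in P278KY (-0.16 ± 0.07), and Tll1, another protease on the list, had -0.19 ± 0.13. Of 10 collagen receptors 6 were higher, the smallest p values belonging to Adgrg1 (-0.09 ± 0.05), a receptor for type III collagen in brain, and Ddr2 (0.26 ± 0.22), a receptor kinase for fibrillar collagen. Of 10 genes of collagen breakdown 7 were higher, with Mmp2 (0.25 ± 0.21), a gelatinase, and Timp1 (0.30 ± 0.31), an inhibitor of such proteases, first by p. The median SD of log2 CPM within groups was 0.53 for processing and crosslinking, 0.43 for breakdown, 0.32 for receptors and 0.15 for the enzymes of the endoplasmic reticulum, beside 0.35 for the collagens. Without the library labelled female wt 14, 4 of 17 genes of processing and 4 of 10 of breakdown had an unadjusted p under 0.05 (background 4.03%), all higher, and 0 were called.

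The level of Col1a1 moved with the mean level of a list of cartilage and bone markers across the 12 libraries. The Pearson relations called for Col4a1 and Col22a1 below lost their call when some libraries were left out. 28 relations were computed (4 collagens, 7 marker lists), on log2 CPM, with p-values from permutation tests (100000 resamples, two-sided) adjusted by Benjamini-Hochberg over the 28. Col1a1 followed the mean level of cartilage and bone markers, which include bone sialoprotein (Ibsp) and the osteoblast factor Sp7, with Pearson r = 0.92 (permutation p = 4e-05, adjusted 0.00112) and Spearman rho = 0.95 (p = 2e-05, adjusted 0.00056). Without the 2 libraries farthest from the median of the markers r was 0.94. Col1a1 and the meninges and fibroblast markers had r = 0.70 (permutation p = 0.0126, adjusted 0.0503) and rho = 0.59 (p = 0.0447, adjusted 0.139), and without the 2 farthest libraries r was 0.50. This relation passed an adjusted p of 0.05 on log2(TPM + 1), with r = 0.73 (adjusted permutation p = 0.0357). It also passed without male P278KY 13 (r = 0.78, adjusted permutation p = 0.0297) or male P278KY 3 (r = 0.80, adjusted permutation p = 0.0183). Within each genotype (n = 6, exact permutation test, adjusted over 8 relations, added after the data were seen) Col1a1 had r = 0.96 with the cartilage and bone markers in wt and 0.96 in P278KY (adjusted p = 0.0333 for both). With the meninges and fibroblast markers it had r = 0.95 in wt (adjusted exact p = 0.0333) and 0.30 in P278KY (adjusted exact p = 0.682). On ranks these relations did not pass: rho was 0.94 in wt and 0.77 in P278KY with cartilage and bone markers (adjusted exact p = 0.133 and 0.206), and 0.83 and 0.49 with meninges and fibroblast markers (adjusted exact p = 0.156 and 0.474). Several marker genes of these lists are themselves matrix genes, and all values share library depth.

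Col4a1 followed the meninges and fibroblast markers with r = 0.79 (permutation p = 0.00221, adjusted 0.0155) and rho = 0.83 (p = 0.00179, adjusted 0.0125). Without the 2 farthest libraries r was 0.55 and its adjusted p 0.332, and without the library labelled female wt 14 r was 0.67 (adjusted p = 0.0908), so the relation rests on those libraries. Within genotypes it was 0.89 in wt (adjusted exact permutation p = 0.0333) and 0.58 in P278KY (adjusted exact p = 0.4), and rho was 0.89 and 0.49 (adjusted exact p = 0.133 and 0.474). With endothelium and pericyte markers Col4a1 had r = 0.68 (permutation p = 0.0144, adjusted 0.0503) and rho = 0.73 (p = 0.00851, adjusted 0.0382), with r = 0.42 (adjusted p = 0.416) without the 2 farthest and r = 0.85 (adjusted p = 0.00523) on log2(TPM + 1). With cord neuron and glia markers r was -0.81 (permutation p = 0.00167, adjusted 0.0155) and rho -0.73 (p = 0.00956, adjusted 0.0382), but the call was lost without the 2 farthest (r = -0.64, adjusted p = 0.262), without the library labelled male wt 9 (r = -0.72, adjusted p = 0.0638) and on log2(TPM + 1) (r = -0.39, adjusted p = 0.364). Col22a1 had r = 0.60 with skeletal muscle markers (permutation p = 0.0419, adjusted 0.107; rho = 0.54, p = 0.0743, adjusted 0.189) and 0.50 without the 2 farthest, 0.55 within wt and 0.05 within P278KY (adjusted exact permutation p = 0.53 and 0.928). It had r = 0.77 with cartilage and bone markers (permutation p = 0.00456, adjusted 0.0255; rho = 0.83, p = 0.0014, adjusted 0.0125), and 0.65 (adjusted p = 0.262) without the 2 farthest. That call was also lost with female wt 1, female wt 14, male P278KY 5 or male wt 6 left out (r from 0.70 to 0.74). With endothelium and pericyte markers Col22a1 had r = 0.73 (permutation p = 0.00897, adjusted 0.0419) and rho = 0.75 (p = 0.00716, adjusted 0.0382), and r was 0.54 (adjusted p = 0.332) without the 2 farthest and 0.37 (adjusted p = 0.364) on log2(TPM + 1). Most omissions of a single library lost this call as well, such as that of female wt 1 (r = 0.67, adjusted permutation p = 0.119). For Col2a1, whose libraries form separate groups, no pooled coefficient is given.

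**Figure D4:**
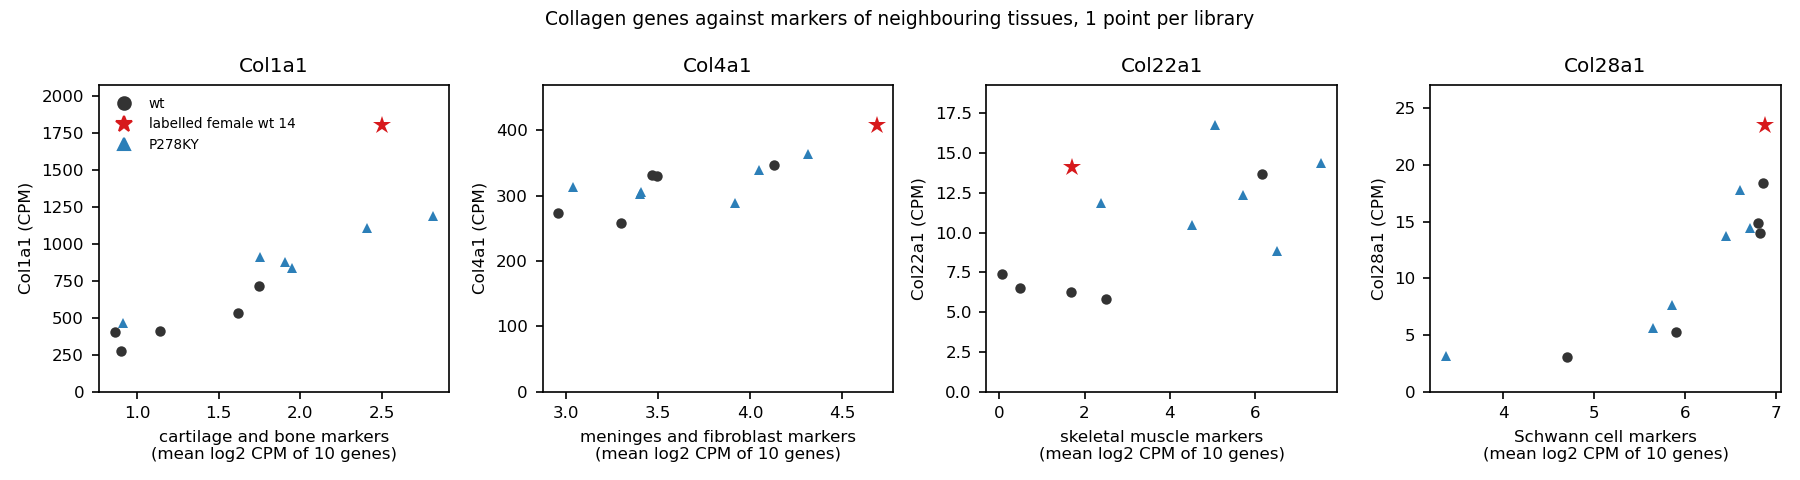
Level of Col1a1, Col4a1, Col22a1 and Col28a1 (y axes, CPM) against the mean log2 CPM of 10 marker genes of cartilage and bone, meninges and fibroblasts, skeletal muscle and Schwann cells (x axes), with 1 point per library. Circles are wt, triangles P278KY and the star the library labelled female wt 14, which has the highest Col1a1, Col4a1 and Col28a1 levels, and Col28a1 stays low in the 5 libraries with the lowest Schwann cell markers.

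The genes whose pattern over the 12 libraries was most like that of Col1a1, among 15461 genes with a mean of at least 1 CPM, were Serpinf1 (r = 0.97), Ctsk (0.95), Cd109 (0.94), Wif1 (0.93) and Emilin1 (0.93), all highest in the library labelled female wt 14. Serpinf1 ran from 10.2 to 39.8 CPM and Ctsk, the collagen-degrading protease of osteoclasts, from 7.20 to 36.3 CPM. Among the collagens, Col1a2 (0.97), Col6a1 (0.92) and Col6a3 (0.91) were the most like it, and Col19a1 (-0.82) the least. These coefficients rank genes and carry no test.

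The promoters of members that varied are set beside those of members that held steady, to show the sequence before the start of both kinds. RefSeq promoters (GRCm38.p6) were at hand for 35 of the 44 genes. In the 250 bases before the start, on either strand, TATAAA was in 14.3% of these genes and in 14.3% of 27025 genes. CCAAT was in 37.1% and 37.5%, and GGGCGG in 60.0% and 35.4%. A gene was counted when any of its promoter entries held the motif. The 120 bases before the start are shown for Col3a1 (chr1:45311418-45311537, plus strand) and Col5a1 (chr2:27886305-27886424, plus strand), whose TPM ranged 4.30-fold and 3.87-fold, and for Col11a1 (chr3:114030420-114030539, plus strand) and Col11a2 (chr17:34039018-34039137, plus strand), which ranged 1.90-fold and 1.53-fold. No annotated exon of a collagen gene overlaps these stretches. Capitals mark these motifs in either orientation: a CCAAT box read on the other strand appears as ATTGG. The GC box GGGCGG appears there as CCGCCC.
Col3a1: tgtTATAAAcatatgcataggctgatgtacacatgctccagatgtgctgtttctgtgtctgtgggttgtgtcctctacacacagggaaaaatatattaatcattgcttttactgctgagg
Col5a1: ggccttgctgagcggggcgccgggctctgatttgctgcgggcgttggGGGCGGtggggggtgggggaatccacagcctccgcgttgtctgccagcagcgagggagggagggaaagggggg
Col11a1: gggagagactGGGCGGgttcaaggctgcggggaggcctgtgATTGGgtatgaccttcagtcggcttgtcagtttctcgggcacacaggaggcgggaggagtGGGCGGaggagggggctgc
Col11a2: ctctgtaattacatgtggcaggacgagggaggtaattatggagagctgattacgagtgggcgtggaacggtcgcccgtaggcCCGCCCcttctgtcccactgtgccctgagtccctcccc
The capitals fall on a TATA motif in Col3a1 and on GC boxes in the other three, with a CCAAT box in Col11a1 as well. A match is letters in a window and not a binding site.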

How the data were processed

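Whole spinal cord mRNA of 12 mice was sequenced as 75 bp read pairs, per the labels' protocols. The authors deposited 1 RSEM gene table per mouse with expected counts, TPM and FPKM; Bowtie2 2.2.0 and RSEM 1.2.12 come from the submitters' processing notes, while the build and annotation were not given in the sources used here. RSEM shares ambiguous reads between similar genes, and CAST alleles may align less well than C57BL/6J ones. How strand was handled in counting is not given either. Expected counts were rounded. Tables held 0 rows without a gene name.

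Genes passing edgeR's filterByExpr over the 4 groups (17995, all 44 collagens) were tested with edgeR 4.0.16 (R 4.3.3; TMM factors, robust quasi-likelihood, labelled sex plus genotype), with p-values adjusted over all of them. A fit with 1 mean per group gave effects within labelled sex and the interaction. CPM and log2 CPM (prior count 2) came from these counts, TPM served for levels between genes, and FPKM as an alternative. The fit was tested on simulated data. Samples are separate mice, so p-values measure the spread between mice, as labelled.

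Named genes are Gars, Col22a1, per class the 2 highest by mean TPM and the smallest p, the 3 largest spreads, the 5 smallest p, 2 genes by p per list, and the 5 genes most like Col1a1. Marker lists had 10 genes each; 1 listed collagen, Col21a1, had no row and was not analysed here. The collagens, classes and lists were chosen with earlier results of these data known. Sequences came from GENCODE M21 and RefSeq (GRCm38.p6). Alternatives were RLE factors, library totals, no filter, DESeq2 1.42.0, a filter of CPM above 1 in at least 6 libraries, limma-trend (limma 3.58.1) on log2(TPM + 1), no sex term and each library left out. The omission of 2 libraries jointly within sexes, the ratios of chains, the comparison at like level, the glycine and motif counts and the sequences shown were added after the data were seen. Python 3.11.15 drew the figures.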

Additional observations from a re-analysis of the deposited data

Results flagged for a closer look

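A sample far from the other 5 of its genotype was looked for in 46 groups of 6 libraries, and 8 were found by Dixon's criterion. Chance flags about 1 in 20 groups that were not chosen by their values. All flagged genes are among the named collagens, some of which were picked by spread or p in these data. That rate therefore does not hold strictly here. In 7 of the 8 the library labelled female wt 14 was the high one among the wt libraries, in which the level was 565 TPM for Col1a1, 515 for Col1a2, 34.9 for Col2a1, 43.9 for Col12a1, 49.97 for Col16a1, 74.8 for Col6a1 and 76.0 for Col6a2. The next highest wt library had 205 TPM of Col1a1 and 197 of Col1a2. In the eighth, female P278KY 4 had Col6a4 at 1.60 TPM against 0.62 to 0.98 in the other P278KY libraries, and without it the log2 fold change of Col6a4 was 0.65 ± 0.25 in place of 0.85 ± 0.27. The 7 flags from 1 library are not independent of each other.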

How the results depend on the processing

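No collagen gene was called for genotype in any of the 20 alternative fits, with a lowest adjusted p of 0.161. The count of genes called over the whole table was 1, and it was 33 with DESeq2, 0 with CPM above 1 in 6 libraries, 2 without the sex term, 0 without the 2 libraries whose sex marks go against their labels, and 1 to 3 with each library left out. Collagen genes with an unadjusted p under 0.05 numbered 1, and 2 with DESeq2, 15 without those 2 libraries, and 1 to 13 with each library left out, the highest being without the library labelled female wt 14. The interaction gave 1 collagen gene with DESeq2. Of the 23 named collagens, 15 kept the sign of their fold change in all alternatives and 8 did not, and none of the 8 was called. The median SD of type VI genes was 0.36 on log2(TPM + 1). The correlation of Col1a1 with meninges and fibroblast markers was 0.73 on log2(TPM + 1) and 0.55 to 0.80 with each library left out. It passed the threshold on log2(TPM + 1) and with male P278KY 3 or male P278KY 13 left out, but not in the main setting. The correlation of Col4a1 with the same markers was 0.55 without the 2 farthest libraries and 0.67 to 0.86 with each left out. Shares by class and the correlation of Col1a1 with cartilage and bone markers changed by less than their spread or stayed past the threshold. The causes of these changes were not tested. No paired analysis was possible because the groups share no mouse numbers. Genes with few counts, such as Col17a1 and Col6a4, limit what can be called.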
